A study of Rattus norvegicus with 6 samples.

Results

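Promoter regions covered mainly by long probes were followed through a methylation array of rat lumbar spinal cord. Neighbouring probes with under 1000 bp between them were joined into regions, and regions on chromosomes 1 to 20 with 3 to 99 probes were kept. A region was counted as long-probe where less than 1/3 of its probes were 45 nt long, the shortest length on the array. That rule gave 3630 long-probe regions of 15284 regions kept (23.8%) and of 16023 regions with at least 3 probes on any chromosome, which were all tested. The rule used probe positions and lengths, and no measured signal. A promoter array of this kind uses longer probes where the sequence is rich in A and T, so that probes melt at like temperatures. The base composition itself was not checked, since the coordinates are those of rat genome build rn4 and no sequence of that build was used here. For the same reason regions are named by their rn4 coordinates, without a gene name.

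Each of the 6 samples was the lumbar spinal cord of a separate male rat of 220 to 250 g, taken on day 14 after surgery. The 3 sham animals had the operation alone, and the 3 CCI animals had a chronic constriction injury, a lasting partial squeeze of a peripheral nerve that models neuropathic pain. Strain, age and genotype were not given in the labels, and both groups share the surgery. Methylated DNA was immunoprecipitated (IP) from each cord and labelled with Cy5, the same animal's input DNA was labelled with Cy3, and both were hybridised to 1 array per animal without a dye swap. The cord is a mixture of neurons and glia, and its identity cannot be checked from DNA signals.

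Methylated DNA immunoprecipitation uses an antibody against 5-methylcytosine, so its yield rises with the number of methylated CpG sites on a fragment. Promoters rich in A and T usually hold few CpG sites and lie outside CpG islands, and many genes expressed in only some tissues have promoters of this kind. A fragment poor in CpG gives the antibody little to bind even when each of its CpG sites is methylated. The quantities given below are the IP signal, the input signal and their ratio. Each is on the log2 scale with the array's median over all probes set to 0, so a negative value is a level below that of the typical probe of that array.

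Long-probe regions resembled the other promoter regions in size. They held a median of 9 probes (3 to 98) over a median of 1661.5 bp, and together 34974 probes. The rule fixed their probe lengths: 14.8% of their probes were 45 nt and 32.7% were 60 nt, the longest on the array. In short-probe regions, where over 2/3 of probes were 45 nt (4276 regions), the shares were 80.4% and 2.19%. No 45 nt probe at all was present in 971 long-probe regions (26.7%). The remaining 7378 regions are called mixed, and 451 of them lay at exactly 1/3.

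Beside the threshold stood 3 long-probe regions with many probes. The region chr1:56476526-56482887 had 9 of 28 probes at 45 nt and a mean ratio of -0.69 over the 6 arrays. The values were 0.05 for chr5:122032625-122037623 and -0.32 for chr5:172936182-172949056. Just outside, mixed regions gave -0.48 (chr17:22162014-22171823), 0.05 (chr2:218940570-218944885) and -0.18 (chr11:28649348-28653125). Ratios inside and outside the threshold overlapped.

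Long-probe regions were not spread evenly along the genome. They made up 33.9% of the regions kept on chromosome 3, 31.9% on chromosome 4 and 30.2% on chromosome 11. On chromosomes 12 and 19 they made up 7.48% and 9.62%. The next region along the chromosome after a long-probe region was long-probe too in 55.6% of cases, against 15.9% after a mixed region and 10.2% after a short-probe region. Of the 3630, 1116 stood alone, 1376 lay in runs of 2 to 9 consecutive long-probe regions, and 1138 (31.3%) lay in 45 runs of 10 or more. The longest run held 136 regions over 3785 kb (chr3:68578334-72363224). The next longest held 96 (chr8:39344205-42908330), 73 (chr3:72400129-74446689), 51 (chr8:15842225-19462850) and 47 regions (chr7:4365803-8296626). No gene names were available for these runs.

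The IP signal of long-probe regions was low on every array and varied little between animals. Its median over the 3630 regions was -1.50, -1.50 and -1.48 in sham 1 to 3 and -1.50, -1.54 and -1.49 in CCI 1 to 3. The input median was -0.40, -0.52 and -0.60 in sham and -0.55, -0.68 and -0.39 in CCI. Input therefore was lower than on a typical probe as well, though by less, and its range over the arrays was wider than that of the IP. The ratio median was -0.76, -0.68 and -0.66 in sham and -0.72, -0.61 and -0.89 in CCI. CCI 3 had the lowest ratio, together with the highest input, and sham and CCI overlapped in all 3 quantities.

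**Figure D1:**
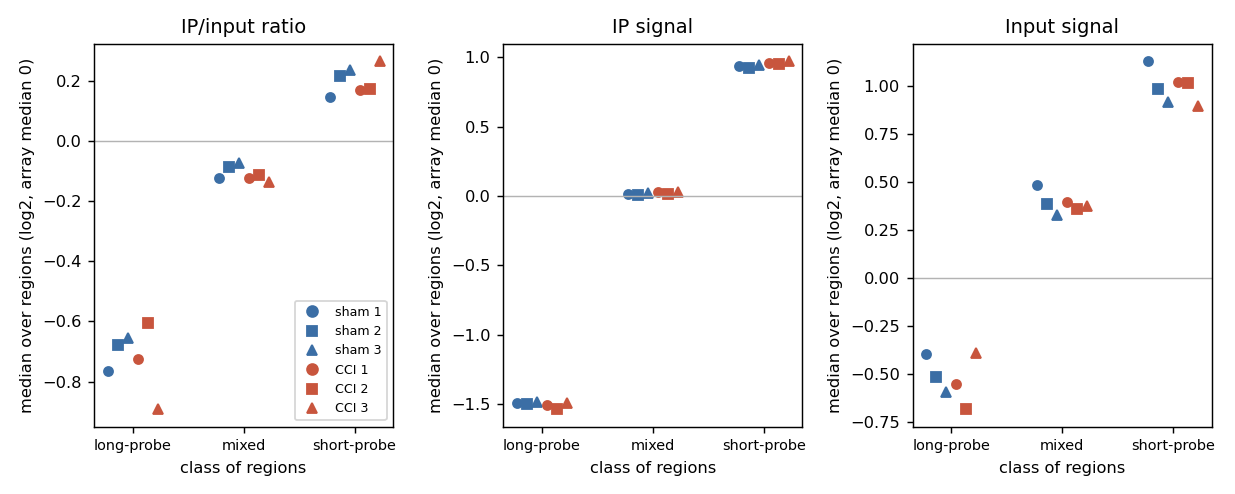
Median over regions of the IP/input ratio, the IP signal and the input signal (log2, array median 0) in long-probe, mixed and short-probe regions; each point is 1 array, blue for sham and red for CCI, with the replicate given by the marker. Long-probe regions lie lowest in every panel, and the points spread widely in the ratio and the input and closely in the IP.

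Against short-probe regions, the ratio of long-probe regions was lower by 0.92 ± 0.12 on the log2 scale (SD, n = 6 arrays), with a gap of -0.92 in the mean and of -1.16 to -0.78 on single arrays. The gap was negative on 6 of 6 arrays (exact two-sided sign-flip test, p = 0.03125, the smallest 6 arrays allow; Benjamini-Hochberg adjusted over 9 gaps, 0.0402). The IP gap was -2.45 ± 0.03 and the input gap -1.52 ± 0.14 (SD, n = 6), each negative on 6 of 6 arrays with the same exact p of 0.03125. Against mixed regions the ratio gap was -0.61 ± 0.09.

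The size of the ratio gap differed between ways of processing the signals. It was -0.28 with normexp background correction, which compresses dim signals, and -0.24 with loess within arrays, which removes a trend of ratio on brightness. With only the probes flagged well above background on all 6 arrays in both channels, it was -0.15 ± 0.09, with an exact sign-flip p of 0.0625. With the trend of ratio on probe length removed from each array it was 0.06 ± 0.12. The class was chosen by probe length, so that step takes out by construction whatever part of the gap goes with length, and the value is a description of what is left. "Well above background" is the scanner software's own flag for a spot. A filter on this flag also changes the mix of probe lengths. In long-probe regions 67.6% of 45 nt probes and 11.3% of 60 nt probes passed in the input (means of 6 arrays). Dimness and probe length cannot be told apart here.

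Single members covered a wide range around these medians. The 6-array mean ratio of long-probe regions ran from -6.32 to 1.37, with -1.51 at the 10th percentile, -0.73 at the median and 0.03 at the 90th. It was above 0 in 399 long-probe regions (10.99%), against 41.2% of all tested regions. The IP signal ran from -4.27 to 2.32 and was above 0 in 253 regions (6.97%). The input ran from -2.04 to 4.61 and was above 0 in 826 (22.8%). The order of the members was stable between animals: over the 3630 regions, pairs of arrays correlated at 0.994 to 0.998 in the IP, 0.896 to 0.950 in the input and 0.859 to 0.938 in the ratio. These are correlations across regions on the same probes, not tests.

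Signal fell with probe length within the long-probe regions. At 45 nt the median probe of a long-probe region had an IP signal of 1.09 ± 0.01 and an input of 0.87 ± 0.06 (SD, n = 6 arrays). At 50 nt the values were -0.81 ± 0.02 and -0.35 ± 0.06. At 60 nt they were -4.26 ± 0.09 and -1.84 ± 0.21. The ratio fell from 0.33 ± 0.06 at 45 nt through -0.26 ± 0.11 at 50 nt and -0.84 ± 0.15 at 55 nt to -1.67 ± 0.57 at 60 nt. In these medians the IP fell more steeply than the input. At 60 nt, however, only 19.7% of probes were well above background in the IP and 11.3% in the input. The medians there are bounded by the floor at which dim spots stand, which limits the comparison of the 2 channels. Across the 3630 regions, the mean probe length ranked against the IP with Spearman's rho of -0.737, against the input with -0.606 and against the ratio with -0.533, given as descriptions.

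**Figure D2:**
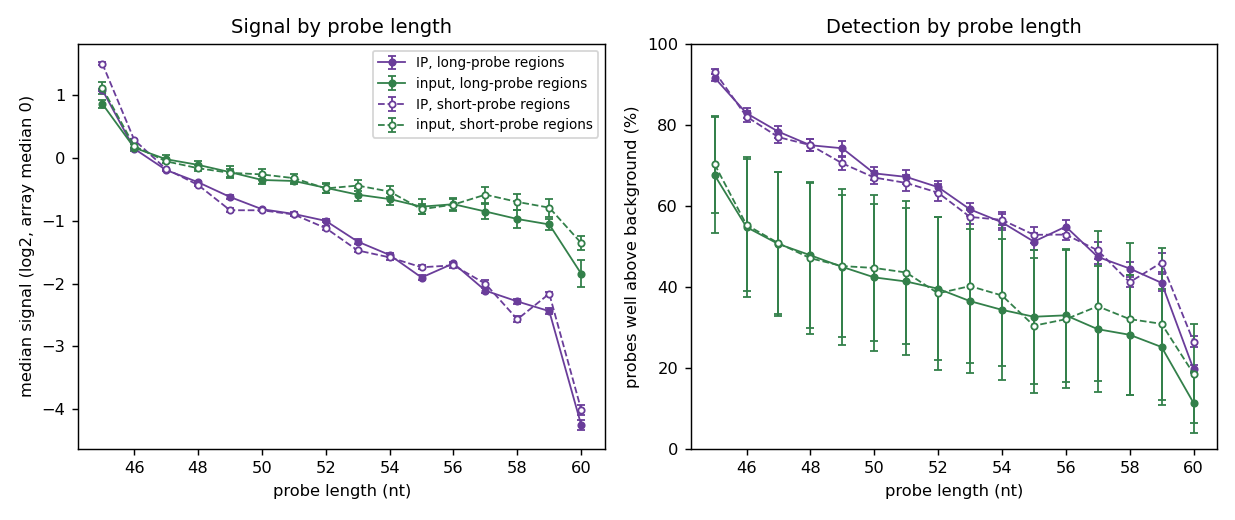
Left, median IP and input signal (log2, array median 0) of probes by length in nt; right, percent of probes well above background; filled points and solid lines are long-probe regions, open points and dashed lines short-probe regions, and bars are the SD over 6 arrays. Both signals fall with length in both classes, the IP from 1.09 at 45 nt to -4.26 at 60 nt in long-probe regions.

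The same step was present inside single regions. In 2654 long-probe regions that held both kinds of probe, 45 nt probes exceeded the longer probes of the same region by 2.76 ± 0.02 in the IP, 1.61 ± 0.18 in the input and 1.08 ± 0.15 in the ratio (SD, n = 6 arrays). Each difference was positive on 6 of 6 arrays (exact sign-flip p = 0.03125, adjusted over 9 gaps 0.0402). The ratio step was positive in 83.3% of these regions, the IP step in 92.6% and the input step in 86.4%. A region mean therefore depends on its mix of probe lengths.

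At 45 and 60 nt, the lengths tested, long-probe regions had the lower IP and input signals, while the ratio gap was small. The sign of the IP gap varied at lengths between these. The median IP was -0.62 in long-probe and -0.83 in short-probe regions at 49 nt, and -1.90 and -1.74 at 55 nt. At 45 nt the IP gap was -0.42 ± 0.01 and the input gap -0.25 ± 0.09, and at 60 nt they were -0.24 ± 0.10 and -0.49 ± 0.18 (SD, n = 6 arrays). All 4 were negative on 6 of 6 arrays (exact sign-flip p = 0.03125, adjusted over 10 gaps 0.0347). These 10 gaps were added after the values were seen. Among 45 nt probes the ratio gap was -0.09 ± 0.08, negative on 5 of 6 arrays (exact sign-flip p = 0.0625). Its values were 0.04, -0.14 and -0.15 in sham and -0.06, -0.09 and -0.15 in CCI. Among 60 nt probes it was 0.15 ± 0.21, negative on 2 of 6 arrays (exact sign-flip p = 0.25). The sign at 60 nt changed with the probes kept. Where the input was flagged well above background the ratio gap was -0.22 (exact sign-flip p = 0.03125), and where both channels were, -0.05. Once the length trend was removed, the median ratio of long-probe regions was -0.01 ± 0.10 (SD, n = 6), with members from -0.69 at the 10th to 0.60 at the 90th percentile. The median IP with its own length trend removed was 0.30 ± 0.02 in long-probe and 0.06 ± 0.01 in short-probe regions (SD, n = 6). These region means take in dim probes, which stand at a floor. Over single probes well above background in the IP on all 6 arrays, the order was the reverse. Their median with the length trend removed was -0.0953 in sham and -0.0983 in CCI in long-probe regions. In short-probe regions it was 0.0971 and 0.102.

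A large part of these regions was dim. In the IP, 53.8% ± 0.9 of their probes in sham and 53.4% ± 1.8 in CCI were well above background (SD, n = 3 each). In the input the share was 19.8%, 41.3% and 45.8% in sham 1 to 3 and 26.8%, 52.5% and 22.7% in CCI 1 to 3. The input shares overlapped between groups (difference -1.62 percentage points, exact permutation p = 1), and the smallest p that 3 against 3 allows is 0.1. Short-probe regions had 87.4% in the IP and 65.2% ± 12.0 in the input in sham. Of 34855 member probes without an outlier flag, 5679 (16.3%) were well above background in both channels on all 6 arrays, and 10665 (30.6%) were so in neither channel on any array.

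Counted by region, 106 long-probe regions (2.92%) had at least 50% of their probes well above background in both channels on all 6 arrays. In 1944 regions (53.6%) this held for the IP only, in 10 for the input only and in 1570 (43.3%) for neither. The median ratio was -0.51 in the first group, -0.40 in the second, -3.48 in the third and -1.12 in the last. Not a single probe passed in the input in 830 regions and in the IP in 26. Dim spots stand at a floor in the processed signal, which bounds the values of the last group.

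**Figure D3:**
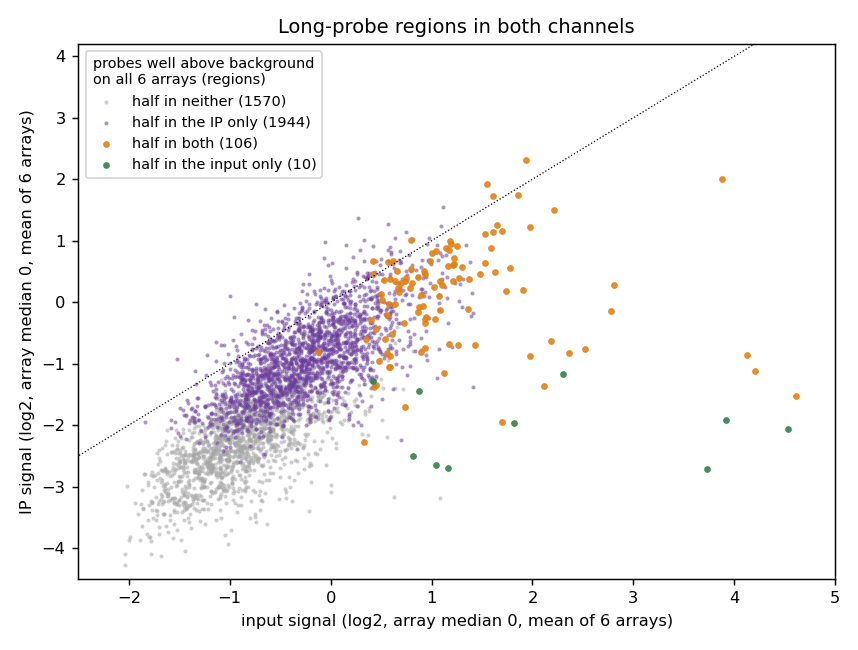
Each point is 1 of the 3630 long-probe regions, with the mean input signal on the x axis and the mean IP signal on the y axis (log2, array median 0, 6 arrays), coloured by whether at least 50% of its probes were well above background on all 6 arrays; the dotted line marks equal values. Most regions lie below the line, and a few with input near 4 and low IP stand far to the right.

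At least 3 probes well above background in both channels on all 6 arrays were present in 727 long-probe regions (20.03%), against 84.3% of short-probe regions. The mean ratio of those probes alone had a median of 0.05, -0.11 and -0.13 in sham and 0.05, -0.03 and 0.10 in CCI. It was above 0 in 358 of the 727 (49.2%), against 65.0% of the 3606 such short-probe regions. These regions had passed a filter on signal and do not stand for all long-probe regions. The groups overlapped (CCI minus sham 0.10, exact permutation p = 0.2).

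The highest of these 727 ratios, chosen after the values were seen, came from regions with few usable probes. The region chr13:99024206-99025940 gave 1.48, 1.40 and 1.24 in sham and 1.65, 1.38 and 1.58 in CCI over 3 probes, or 1.46 ± 0.15 (SD, n = 6). The region chr3:112454529-112456344 gave 1.34, 1.33 and 1.46 in sham and 1.41, 1.40 and 1.72 in CCI. In chr2:244794476-244796275, with 5 usable probes, the ratio was 1.27, 1.12 and 1.15 in sham and 1.22, 1.09 and 1.33 in CCI. All 6 arrays were high in each of them, and sham and CCI overlapped.

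The regions with the lowest ratios were clustered and had high input. Without regard to filters, the lowest ratios for their probe length were in 6 regions of chromosome 15 between 5550212 and 6289973. The lowest, chr15:5856423-5857937, gave -6.04, -6.45 and -6.57 in sham and -5.98, -6.45 and -6.44 in CCI. In chr15:6288257-6289973 the ratio was -5.46, -6.02 and -6.14 in sham and -5.53, -6.05 and -6.00 in CCI. Of the 15 long-probe regions with a mean input above 2, 6 lay on chromosome 15 and 6 on chromosome 5. The ratios of sham and CCI overlapped in both of the regions given here, but the IP signals did not. In chr15:5856423-5857937 the IP was -2.28, -2.41 and -2.15 in sham and -2.05, -1.91 and -1.56 in CCI, a difference of 0.44 ± 0.11 (SE; limma adjusted p = 0.296). In chr15:6288257-6289973 it was -1.69, -1.78 and -1.57 in sham and -1.51, -1.49 and -1.13 in CCI, a difference of 0.31 ± 0.09 (SE; limma adjusted p = 0.338). The IP was well above background on all 6 arrays in 2 of 5 probes used in the former region and 3 of 6 in the latter. These IP values and ratios therefore rest in part on dim IP spots. Over the 3 bright probes of the latter the mean ratio was -5.26.

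Only 4 long-probe regions had at least 3/4 of their probes well above background in both channels on all arrays. On chromosome 5, chr5:78091824-78093513 had a ratio of -2.71, -3.12 and -3.10 in sham and -2.94, -3.11 and -3.14 in CCI. Nearby, chr5:78684282-78685980 gave -1.95, -2.39 and -2.32 in sham and -2.17, -2.31 and -2.43 in CCI. The region chr18:16237958-16239285 gave -1.56, -1.94 and -1.78 in sham and -1.48, -1.56 and -1.34 in CCI. There the groups did not overlap, but limma's adjusted p was 1.00. The region chr2:87929393-87929913 had -0.12, -0.37 and -0.32 in sham and -0.40, -0.23 and -0.24 in CCI. In the first 3 the mean input was between 2.52 and 3.88, far above the long-probe median of -0.53.

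At the other end of the order for probe length stood regions with few 45 nt probes or none. The highest was chr4:170250533-170252234, with a ratio of 0.29, 0.49 and 0.58 in sham and 0.32, 0.77 and 0.45 in CCI at a mean probe length of 57.5 nt. The region chr14:44814597-44816144, also near that end, had the higher measured ratio, 1.12, 1.55 and 1.56 in sham and 1.21, 1.16 and 1.23 in CCI. The groups overlapped in the ratio of both. The input was well above background on all 6 arrays in only 1 of 10 probes of the first and 3 of 9 of the second. Both ratios therefore rest largely on dim input spots.

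The regions with the most probes had intermediate values. The region chr5:74797832-74817610, with 98 probes over 19779 bp, gave a ratio of -0.26, -0.34 and -0.33 in sham and -0.31, -0.27 and -0.41 in CCI. In chr11:16385566-16406379 (94 probes) it was -0.72, -0.55 and -0.44 in sham and -0.75, -0.41 and -0.82 in CCI. In chr1:56454594-56475388 (94 probes) it was -0.72, -0.62 and -0.64 in sham and -0.60, -0.58 and -0.87 in CCI. CCI 3 was the lowest array in all 3, as in the median of the whole class.

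Ratios were lower inside long runs. The median was -0.47 ± 0.07 in regions that stood alone, -0.64 ± 0.09 in runs of 2 to 9 and -1.07 ± 0.16 in runs of 10 or more (SD, n = 6 arrays). Mean probe length rose along the same order, from 52.0 to 53.1 and 55.5 nt. With the length trend removed the ratio medians were 0.02 ± 0.07, 0.01 ± 0.10 and -0.06 ± 0.14. Within arrays, regions in long runs differed from those alone by -0.09 ± 0.07, negative on 5 of 6 arrays (exact sign-flip p = 0.0625). The IP signal with its own length trend removed was 0.19, 0.26 and 0.41 in the same order, with SDs of 0.00445, 0.01 and 0.02, and was higher in long runs than alone by 0.21 ± 0.02 on 6 of 6 arrays (exact sign-flip p = 0.03125, adjusted 0.0347). The input with its own length trend removed rose too, 0.13 ± 0.08, 0.14 ± 0.09 and 0.25 ± 0.14. Long runs were also dimmer, which limits these values: 40.1% of their probes were well above background in the IP on all 6 arrays, against 57.6% alone. For the run of 136 regions on chromosome 3 the ratio was -1.33, -1.03 and -0.97 in sham and -1.21, -0.87 and -1.40 in CCI, with overlap.

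Across the width of a region, the ratio with the length trend removed was slightly higher in the middle. In long-probe regions of up to 2500 bp, bins of 200 bp gave 0.05 ± 0.12 at the centre, -0.12 ± 0.13 at 800 bp on the lower-coordinate side and -0.11 ± 0.11 on the other. Compared within arrays, the centre was higher by 0.18 ± 0.02 and 0.16 ± 0.02 (SD, n = 6), on 6 of 6 arrays each (exact sign-flip p = 0.03125, adjusted over 10 gaps 0.0347). The IP with its length trend removed was 0.37 ± 0.02 at the centre and 0.25 ± 0.01 and 0.29 ± 0.01 at the same distances, lower than the centre on 6 of 6 arrays with the same exact p. The input with its length trend removed went the other way, 0.14 ± 0.14 at the centre and 0.26 ± 0.09 and 0.29 ± 0.10 at these distances. The central rise of the ratio thus goes with both channels, and the input step was not tested within arrays. In short-probe regions the IP values were 0.06, -0.03 and 0.06. Mean probe length in long-probe regions was 54.6 nt at the centre and 53.5 and 53.1 nt at the edges.

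By chromosome, the median ratio of long-probe regions ran from -1.02 on chromosome 20 and -0.96 on chromosome 3 to -0.44 on chromosome 16. Mean probe length there was 54.1, 54.7 and 51.9 nt. With the length trend removed the medians were -0.26, -0.03 and 0.01 in the same order. No chromosome separated CCI from sham: the smallest exact permutation p over 20 chromosomes was 0.2 (chromosome 16), and all were 1 after Benjamini-Hochberg adjustment.

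The study's comparison was CCI against sham. The sham animals had a median ratio of -0.70 ± 0.06 over the long-probe regions and the CCI animals one of -0.74 ± 0.14 (SD, n = 3 each), a difference of -0.04 (exact two-sided permutation p = 0.8). In whole tissue a change inside cells and a change in the makeup of cells cannot be told apart. By the same exact test the IP medians differed by -0.02 (p = 0.4) and the input medians by -0.04 (p = 0.8). In the ratio and the input the difference was smaller than the SD of either group. In the IP it was larger than the SD in sham (0.00857) but smaller than that in CCI (0.0250), and the groups overlapped. The sign of the ratio difference was not stable: it was 0.03 without CCI 3, which had the lowest ratio, and -0.19 within the first of 2 scans, where CCI 3 is the only CCI array. Without CCI 3, the CCI arrays left were all in the second scan and the sham arrays in the first.

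Region by region, limma called 0 of the 3630 long-probe regions in the ratio at an adjusted p under 0.05, and 0% of all 16023. The lowest value limma gave any member after adjustment was 1.00. Without adjustment, 108 long-probe regions (2.98%) were under 0.05 in limma, against 2.63% of all tested regions. Of them 20 (0.551%) were higher in CCI, against 0.512% of all, and 88 (2.42%) were lower, against 2.12%. Sham and CCI did not overlap in 205 members (5.65%), against 7.2% of all tested regions. The median difference was -0.04 in long-probe regions and -0.02 in all. The 95% confidence interval of a member's difference, without adjustment, reached 0.31 to either side at the median. With 3 arrays per group, changes below about that size could not be told from 0 in a typical member. Larger ones could be missed too after adjustment over 16023 regions.

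The 5 long-probe regions with the lowest p and the lower ratio in CCI did not pass, and their values follow. The region chr4:66888154-66889909 gave -0.86, -0.96 and -0.87 in sham and -1.45, -1.55 and -1.18 in CCI, a difference of -0.50 ± 0.13 (SE; limma adjusted p = 1.00). In chr8:40511539-40513059 it was -1.02, -0.98 and -1.09 in sham and -1.48, -1.37 and -1.49 in CCI. In chr3:24044950-24046715 it was -1.08, -0.81 and -0.69 in sham and -1.34, -1.23 and -1.56 in CCI. The differences in these 2 and in chr4:61502319-61503791 and chr4:124121279-124122921 were -0.42, -0.52, -0.43 and -0.46. In all 5 the IP difference lay between -0.02 and 0.03, and the input was higher in CCI by 0.33 to 0.44.

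Among regions with a higher ratio in CCI the picture was the mirror of this. The region chr1:164362517-164364117 gave -1.77, -1.74 and -1.78 in sham and -1.43, -1.34 and -1.30 in CCI, a difference of 0.40 ± 0.11 (SE; limma adjusted p = 1.00). In chr10:60965491-60966212 it was -1.41, -1.30 and -1.59 in sham and -0.98, -1.03 and -1.12 in CCI. The differences were 0.39 there, 0.35 in chr18:29302235-29303829, 0.31 in chr18:30668277-30669856 and 0.31 in chr1:61164471-61166258. The input differences of the 5 ran from -0.48 to -0.25, and the IP differences from -0.02 to 0.12. In chr18:30668277-30669856 the sign reversed with normexp correction (-0.02) and among probes above background in the input (-0.09).

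Over all long-probe regions the differences between groups were narrow in the IP and wide in the input. Their SD over the 3630 regions was 0.0557 in the IP, 0.142 in the input and 0.137 in the ratio. Between animals of 1 group the median SD of a member was 0.0374 in sham and 0.0581 in CCI for the IP, 0.202 and 0.200 for the input, and 0.176 and 0.185 for the ratio. The IP channel alone therefore could resolve smaller differences: its median 95% interval reached 0.0868 to either side. In the input, limma called 0 regions, and 69 members (1.90%) had an unadjusted p under 0.05, against 1.37% of all.

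**Figure D4:**
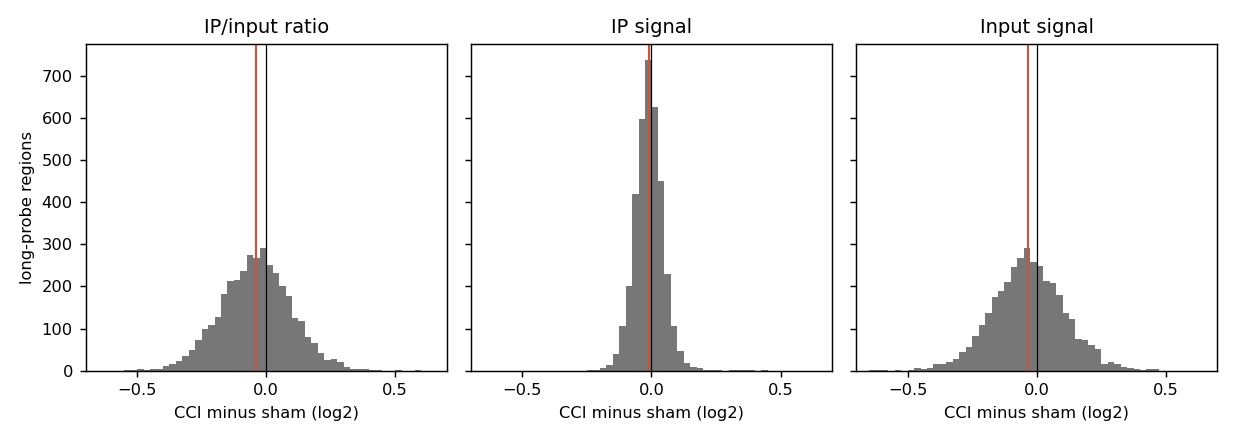
Number of long-probe regions by their CCI minus sham difference (log2) in the ratio, the IP signal and the input signal; the black line is 0 and the red line the median of the 3630 regions. The IP histogram is the narrowest, with an SD of 0.0557 against 0.142 in the input.

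In the IP signal over all probes, limma called 0 of the 3630 long-probe regions and 0% of all tested regions, with a smallest adjusted p of 0.285. At an unadjusted p under 0.05 there were 328 members (9.04%), against 10.6% of all. Of these, 237 (6.53%) were lower in CCI, against 2.98% of all tested regions, and 91 (2.51%) were higher, against 7.65%. The counts depended on single arrays. Without CCI 2, 248 were higher (6.83%, against 9.8% of all) and 148 lower (4.08%, against 2.25%). Arrays were read in 2 scans, with CCI 1 and CCI 2 alone in the second. Within the first scan, which held the 3 sham arrays and CCI 3, 27 long-probe regions were called (0.744%), 18 higher and 9 lower, against 0.481% of all tested regions. With scan as a block the count was 23 (0.634%), against 0.412% of all. In both fits the difference is that of CCI 3 alone from the 3 sham arrays, with no CCI replicate in the same scan, so that CCI 3 is assumed to vary like the other arrays. The scan and the animal cannot be told apart in them.

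The long-probe regions with the lowest p in the IP and the lower signal in CCI were these 3. The region chr18:26350441-26352067 gave -1.13, -1.15 and -1.14 in sham and -1.31, -1.39 and -1.33 in CCI, a difference of -0.20 ± 0.03 (SE; limma adjusted p = 0.285). In chr8:40641152-40642889 the IP was -2.01, -1.93 and -1.996 in sham and -2.21, -2.15 and -2.21 in CCI. In chr4:69056248-69057913 it was -2.59, -2.67 and -2.61 in sham and -2.77, -2.80 and -2.81 in CCI. Lack of overlap between the groups was part of the rule that chose them. By the median of probes the first turned to 0.04.

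With the higher IP signal in CCI, chr15:56153871-56155605 gave -2.43, -2.35 and -2.37 in sham and -2.15, -2.18 and -2.13 in CCI (difference 0.23 ± 0.03, SE; limma adjusted p = 0.285). In chr5:78219259-78220789 the IP was -1.48, -1.43 and -1.43 in sham and -1.30, -1.28 and -1.26 in CCI. In chr9:1515984-1517549 it was -1.97, -1.98 and -2.001 in sham and -1.86, -1.89 and -1.80 in CCI. For the last 2 the difference was -0.00194 and -0.04 when only probes above background in the IP were kept, against 0.17 and 0.14 over all probes.

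Restricting the IP test to probes well above background in the IP on all 6 arrays changed the count of calls. At least 1 such probe was present in 3604 long-probe regions, with 4 at the median. In them limma called 16 regions at an adjusted p under 0.05, 15 lower and 1 higher in CCI. Of all 15990 regions with such a probe 31 were called (0.194%), 17 lower (0.106%) and 14 higher (0.0876%). At an unadjusted p under 0.05 there were 742 long-probe regions lower (20.6%), against 8.26% of all, and 160 higher (4.44%), against 10.7%. This selection was 1 of the alternatives to the test on all probes, which called none.

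The 16 calls rested on 1 to 5 probes each. In chr16:23786134-23787914, with 2 probes, the IP signal was -0.41, -0.39 and -0.41 in sham and -0.72, -0.63 and -0.73 in CCI, a difference of -0.29 ± 0.03 (SE; limma adjusted p = 0.0159). In chr8:41164757-41166463 the single probe gave -0.93, -0.77 and -0.88 in sham and -1.25, -1.22 and -1.20 in CCI, a difference of -0.36. In chr20:609687-611443 it was -0.59, -0.54 and -0.56 in sham and -0.78, -0.87 and -0.81 in CCI. In these 3 regions every CCI array lay below every sham array. They had the lowest p of the 16 on the same arrays, so that separation follows from the choice.

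Other calls rested on 3 to 5 probes. In chr2:140221602-140222469, over 3 probes, the IP was -0.62, -0.54 and -0.54 in sham and -0.83, -0.81 and -0.80 in CCI, a difference of -0.25. In chr11:66267439-66269126, over 5 probes, it was -1.48, -1.45 and -1.41 in sham and -1.63, -1.60 and -1.62 in CCI, a difference of -0.17. In chr8:39606157-39607875, also over 5 probes, it was -0.78, -0.77 and -0.79 in sham and -0.92, -0.97 and -0.93 in CCI, a difference of -0.16. The only region higher in CCI, chr11:5433157-5434815, gave -1.42, -1.42 and -1.49 in sham and -1.25, -1.24 and -1.13 in CCI, but over all its 11 probes the difference was -0.08. Over the 16 regions the size of the difference was 1.11-fold to 1.29-fold.

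**Figure D5:**
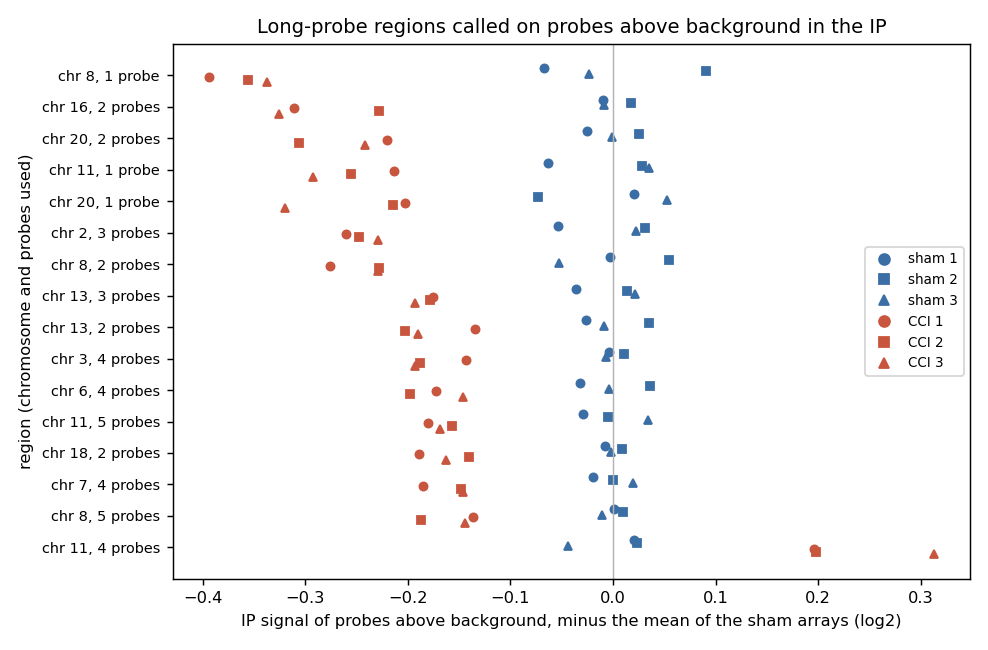
IP signal of the 16 long-probe regions called on probes well above background in the IP, as the difference of each array from the sham mean of that region (log2); blue is sham, red is CCI, the marker gives the replicate, and each line gives the chromosome and the number of probes. In every region the 3 CCI arrays lie outside the sham range, to the left in 15 regions and to the right in 1. The regions were picked by these same values.

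Of the 45 probes behind the 16 calls, 43 differed in their region's direction and 33 separated the groups without overlap. The means of these same probes gave the calls, so their agreement is a description and no separate support. No 45 nt probe was present in 9 of the 16 regions. Over all probes of the same regions the IP difference ran from -0.14 to 0.14, and the ratio difference from -0.33 to 0.18 with a limma adjusted p of 1.00 in each. Of the 16, 3 lay in the run of 96 regions on chromosome 8.

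The number of calls among these probes was not stable. Leaving out sham 1 gave 9 long-probe calls of 10 over all regions (0.0625% of all), and leaving out sham 2 gave 1 of 1 (0.00625%). Leaving out sham 3 or CCI 1 gave 0 of 0 (0%). Without CCI 2 it was 1 of 1 (0.00625%). Without CCI 3 there were 140 long-probe calls (3.88%), 110 lower and 30 higher, against 323 over all regions (2.02%). That fit sets sham arrays of the first scan against CCI 1 and CCI 2 of the second, so group and scan cannot be told apart in it. No region of the 16 stayed under an adjusted p of 0.05 without each array in turn: the highest such limma adjusted p was 0.0792 to 0.193 over the 16. With scan as a block 28 were called (0.777%) and within the first scan 29 (0.805%), each against 50 over all regions (0.313%), and in both CCI 3 alone stands for CCI. With the replicate block 11 were called, against 14 over all regions (0.0876%). With the trend of the IP on probe length removed from each array 7 were called, all lower in CCI, against 11 over all regions (0.0688%).

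Among these probes the median IP signal of the class was slightly lower in CCI. The median over 17546 such probes of long-probe regions was -0.69, -0.67 and -0.70 in sham and -0.71, -0.72 and -0.71 in CCI, a difference of -0.03 without overlap (exact permutation p = 0.1, the smallest possible). In short-probe regions the same median was 0.02 higher in CCI, also without overlap. With the length trend removed the long-probe medians were -0.0953 in sham and -0.0983 in CCI and overlapped. Since probe length chose the class, removing that trend also takes out a shift shared by the class, and says nothing of its source. The unadjusted counts then were 325 lower (9.02%, against 5.51% of all) and 364 higher (10.1%, against 10.8%). The cause of the shift was not tested.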

How the data were processed

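Chromosome, position and length of each probe were read from the array files. Per the file headers, the authors ran Agilent Feature Extraction 11.0.1.1 on an rn4 design. Its processed signals, the deposited intensity used here, had been background-subtracted and dye-normalized, and dim spots stand at a floor. The deposited log10 ratio was used as an alternative only, since it was exactly 0 in 8.37% to 28.4% of member probes per array. Other columns used hold flags, and median spot and background signals that served the normexp alternative only.

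Of 172669 probes, 656 with an outlier flag on any array were left out. Log2 of IP over input, and each channel, were centred on the array median. A region's value was the mean of its probes. Groups were compared with limma 3.58.1 under R 4.3.3 (lmFit, eBayes) over all 16023 regions, with Benjamini-Hochberg adjustment at 0.05. Class medians went through exact permutation tests and gaps through exact sign-flip tests, all two-sided. Regions were named by rule: lowest p without overlap (5 a direction in the ratio, 3 in the IP), brightness in both channels, most probes, and those beside the threshold. Other regions were picked for extreme values. The members, lists and tests were chosen with earlier results of these data known. The number of arrays limits the precision. The correlations of deviations were 0.0103 to 0.229 for same-numbered animals and -0.333 to 0.188 for the others. Not every same-numbered pair was over 0.1, so they were not treated as paired. Figures used matplotlib 3.10.9.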

Additional observations from a re-analysis of the deposited data

How the results depend on the processing

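In the ratio, limma called 0 long-probe regions under every alternative run, the replicate block included. In the IP the count was 0 on all probes, 1 with normexp (9 over all regions), 2 with the median of probes (3), 1 among single probes (2), 23 with scan as a block (66) and 27 within scan 1 (77). Among probes above background in the IP it was 16 (31). Choices added after seeing the data gave 39 with scan as a block and the length trend removed (90) and, among probes above background, 28 with scan as a block (50), 29 within scan 1 (50), 7 with the length trend removed (11) and 11 with the replicate block (14). The scan settings compare CCI 3 alone with sham. Leaving out each array in turn gave 0 to 140 over both sets of probes (0 to 323). The 140 came without CCI 3, where group and scan cannot be told apart. The median ratio difference of -0.04 became 0.038 with loess and 0.030 with the length trend removed, stayed -0.04 with the replicate block, and ran from -0.11 to 0.034 without each array. The exact sign-flip test of the gap of -0.92 gave -0.15 in both channels (p = 0.0625), -0.96 within scan 1 (p = 0.125) and -0.95 to -0.87 without each array (p = 0.0625, the smallest 5 arrays allow). The gap was 0.060 with the length trend removed, added after seeing the data. At 45 nt normexp gave -0.077 (exact p = 0.03125). At 60 nt normexp gave 0.040 (exact p = 0.03125), the input filter -0.22 and both channels -0.052. Without each array the IP share difference ran from -1.36 to 0.427 and the input share difference from -10.9 to 4.03 percentage points. Of 463 values of named regions 19 reversed. They were -0.017 (normexp), -0.085 (input filter) and -0.084 (both channels) for chr18:30668277-30669856, and 0.040 by the median of probes for chr18:26350441-26352067. For chr8:40641152-40642889, probes above background gave 0.037 with the length trend removed, and values without each array ran from -0.23 to 0.022. For chr5:78219259-78220789 they gave -0.00194, and -0.015 to 0.18 without each array. For chr9:1515984-1517549 they gave -0.044, the median of probes -0.055, and values without each array ran from -0.076 to 0.15. Where the construction of a setting does not show it, the cause was not tested. Signal over background limits the ratio: 17.0% of member probes were well above background in the input on all 6 arrays.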
